A study of Mus musculus with 48 samples.

Results

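The amino acid and peptide transporter genes Slc7a5, Slc7a8, Slc7a9, Slc3a1, Slc3a2, Slc15a1, Slc6a19, Slc1a1, Slc1a5 and Slc38a2 were followed in sorted enteroendocrine cells (EECs) of the duodenum, ileum and colon. They were taken by name and are 10 of the 53465 genes in the count table. All 10 were present with at least 1 read in each of the 48 libraries, and all 10 passed the filter on low counts that left 15126 genes for testing. EECs were purified from lean male Neurod1-cre-eYFP mice of C57BL6 background, housed singly from shortly before surgery and aged about 20 weeks when the experiment began, as CD45-negative eYFP-positive epithelial cells. The study compared 3 conditions. VSG mice had about 70% of the stomach removed (vertical sleeve gastrectomy) and were given vitamin B12 each week. S_al mice had a sham operation and free access to food, and S_wm mice had a sham operation and restricted meals so that their weight followed that of the VSG mice. Mice of all 3 conditions carried the Cre and reporter alleles, had liquid diet around surgery and standard chow afterwards, and were fasted overnight and gavaged with glucose at 3 g per kg about 15 min before tissue was taken, 6 weeks after surgery. The first 5 cm of the small intestine (duodenum), the last 15 cm (ileum) and the colon with the rectum were sorted separately, giving 5 S_al, 5 S_wm and 6 VSG libraries in each region from 17 mice. Because the reporter is switched on permanently by Cre, the sorted cells are those that expressed Neurod1 at some time in their history together with whatever other cells passed the gate.

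Dietary protein reaches the epithelium as free amino acids and as di- and tripeptides. On the apical membrane, Slc6a19 (B0AT1) carries neutral amino acids with sodium, Slc15a1 (PepT1) carries di- and tripeptides with protons, Slc1a1 (EAAT3) carries glutamate and aspartate, and the light chain Slc7a9 joined to the heavy chain Slc3a1 (rBAT) forms the exchanger of cystine and cationic amino acids whose loss causes cystinuria. The heavy chain Slc3a2 (CD98) brings light chains such as Slc7a5 (LAT1) and Slc7a8 (LAT2), exchangers of large neutral amino acids, to the membrane. Slc1a5 (ASCT2) exchanges small neutral amino acids including glutamine, and Slc38a2 (SNAT2) takes up neutral amino acids with sodium and is known to be induced by amino acid shortage. In EECs, nutrient carriers also act in sensing, since electrogenic uptake of peptides through PepT1 can depolarise the cell and peptides and amino acids are known to stimulate the release of GLP-1 and cholecystokinin.

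The promoters of the partner genes Slc3a1 and Slc7a9 are shown because their products form 1 transporter and both genes were low in the colon. RefSeq windows (GRCm38.p6, from 250 bases before to 50 bases after a transcript start) were matched by symbol for 8 of the 10 genes, the others being Slc7a5 and Slc1a5. Short motifs of intestinal and amino acid response factors were searched on both strands: HNF4 (CAAAGTCCA), HNF1 (its consensus, given by name only), the motif of GATA factors (AGATAA), that of CDX factors (TTTATNG) and ATF4 (TGATGNAAN). Capitals mark matches, and both windows are written 5′ to 3′ on the plus strand, at chr17:85028097-85028396 for Slc3a1 and chr7:35448842-35449141 for the upstream of the 2 RefSeq starts of Slc7a9.
Slc3a1: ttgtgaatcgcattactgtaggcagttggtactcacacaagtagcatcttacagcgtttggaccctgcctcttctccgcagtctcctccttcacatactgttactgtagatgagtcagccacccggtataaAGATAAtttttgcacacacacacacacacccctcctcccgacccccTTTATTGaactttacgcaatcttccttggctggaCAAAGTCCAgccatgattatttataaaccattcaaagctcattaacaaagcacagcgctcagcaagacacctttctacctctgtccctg
Slc7a9: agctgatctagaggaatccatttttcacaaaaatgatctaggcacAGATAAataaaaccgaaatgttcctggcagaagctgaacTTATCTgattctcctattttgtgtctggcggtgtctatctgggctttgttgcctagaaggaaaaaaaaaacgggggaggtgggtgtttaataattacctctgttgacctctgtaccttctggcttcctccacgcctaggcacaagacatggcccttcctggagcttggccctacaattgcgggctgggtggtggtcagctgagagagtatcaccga
The Slc3a1 window held a GATA match beginning at base -119 from the start, a CDX match at -73 and an HNF4 match at -39. The Slc7a9 window held GATA letters at -205 on the plus strand and at -166 on the minus strand. The HNF4 letters occurred in 0.475% of all 32851 promoter windows, the GATA letters in 11.2% and the CDX letters in 10.9%. Among the 9 windows of the members they occurred in 1, 2 and 1, all of them in the windows shown. The windows of Slc6a19, Slc15a1, Slc7a8 and Slc3a2, also low in colon, held none of these letters. No member window held the HNF1 or ATF4 letters, which occurred in 0.399% and 3.95% of all windows. The matches are descriptions of sequence only, and the overlap of the Slc3a1 gene with another gene is given below.

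Libraries held 4648651 to 17182463 counted reads (median 6713018), and the label of enteroendocrine cells was checked against markers. Chga and Chgb, secretory granule proteins of EECs, were present in every library, and the summed level of 8 enteroendocrine markers was 28800 to 98850 CPM (read counts relative to the TMM-scaled size of the library) in all libraries except the duodenal library of S_wm mouse 27. Chga and Chgb had the highest medians of the 8 in every region. In the edgeR fit described below, 6 of the 8 were lower and 1 higher in colon than in duodenum (adjusted p under 0.05, 55.0% of all genes). The median log2 difference was -1.65. Between colon and ileum 6 were lower and 0 higher (49.2% of all genes), with a median of -1.12. Medians in duodenum and colon were 1102 and 32.7 CPM for Scg2, 1010 and 114 for Pcsk1, and 17620 and 19910 for Chga. Markers of absorptive enterocytes were also present. The sum of 15 of them was 7589 to 20250 CPM in the other 15 duodenal libraries, 5891 to 21650 CPM in the ileum and 788 to 1392 CPM in the colon, with the lactase gene Lct, the trehalase gene Treh and Cyp3a11 at 0 in at least 1 colon library. The duodenal library of S_wm mouse 27 stood apart, with 63260 CPM of enterocyte markers, 6.49 times the median of the other duodenal libraries, and 11620 CPM of enteroendocrine markers, 0.201 times that median. Results that rest on it are given with and without it. The labels of S_al mouse 12 were crossed between its tissue field and its sample code. Its library labelled ileum held 848 CPM of the ileal gene Fabp6 and its library labelled colon held 60.4 CPM of the colonic hormone gene Insl5, and the tissue field was used.

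**Figure D1:**
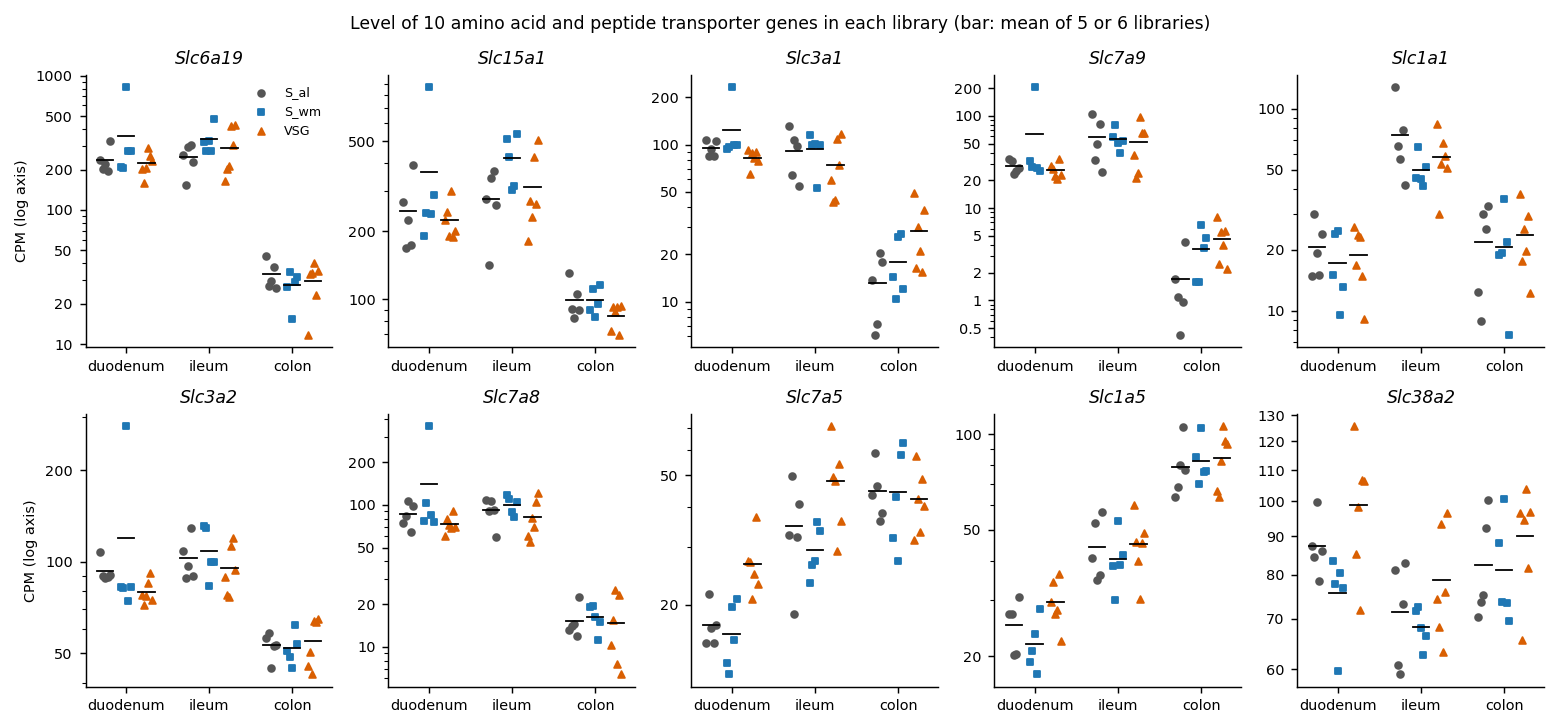
Each panel plots the level of 1 gene in CPM on a log axis in each of the 48 libraries, by region and condition (grey circles S_al, blue squares S_wm, orange triangles VSG, black bars group means). Slc6a19, Slc15a1, Slc3a1, Slc7a9, Slc3a2 and Slc7a8 were low in the colon and high in 1 S_wm duodenal library, while Slc1a5 was highest in the colon.

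Counts were also divided by the length of the exons, so that levels could be compared between genes. In the duodenum the most abundant of the transporters was Slc15a1 (mean level 56.4 ± 34.5 CPM per kb, SD, n = 16), followed by Slc6a19 (53.7 ± 30.8), Slc3a1 (43.8 ± 16.3), Slc3a2 (27.4 ± 14.01), Slc7a8 (19.6 ± 14.1) and Slc7a9 (14.3 ± 16.7), and neighbours in this order differed by less than the larger of their SDs except Slc3a1 and Slc3a2. Slc38a2 (9.96 ± 1.81), Slc1a5 (6.17 ± 1.32), Slc7a5 (5.53 ± 1.74) and Slc1a1 (2.29 ± 0.761) had lower means. Slc7a9 and Slc38a2 differed by less than the larger of their SDs, and Slc1a5 and Slc7a5 by less than their SDs. Without the library of mouse 27 (n = 15) Slc3a2 (23.9 ± 2.58), Slc7a8 (16.1 ± 2.75) and Slc7a9 (10.2 ± 1.62) also differed from each other by more than the larger of their SDs. Slc38a2 (10.2 ± 1.65) was then level with Slc7a9, and the order was otherwise the same. In the ileum Slc15a1 (68.8 ± 24.4) and Slc6a19 (57.9 ± 18.4) were again the most abundant, followed by Slc3a1 (37.7 ± 12.8), Slc3a2 (28.8 ± 5.13), Slc7a9 (20.65 ± 9.53) and Slc7a8 (18.1 ± 4.25), and Slc1a5 (10.4 ± 2.18), Slc7a5 (10.3 ± 3.63), Slc38a2 (8.27 ± 1.23) and Slc1a1 (7.29 ± 2.79) were lowest. There, neighbours differed by more than the larger of their SDs only between Slc6a19 and Slc3a1 and between Slc7a8 and Slc1a5. In the colon the order was different. Slc1a5 (19.7 ± 3.55) and Slc15a1 (19.2 ± 3.16) had similar levels per kb, followed by Slc3a2 (15.2 ± 2.06), Slc7a5 (11.8 ± 2.93), Slc38a2 (9.59 ± 1.49) and Slc3a1 (8.93 ± 5.06), then by Slc6a19 (6.01 ± 1.71), Slc7a8 (3.06 ± 1.08) and Slc1a1 (2.69 ± 1.13), and Slc7a9 was the least abundant (1.275 ± 0.838). Neighbours in the colon differed by less than the larger of their SDs for Slc1a5 and Slc15a1, for Slc7a5 and Slc38a2, for Slc38a2 and Slc3a1, for Slc3a1 and Slc6a19, and for Slc7a8 and Slc1a1.

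The comparison of regions asks how the transporter set of EECs differs along the gut. Fold changes are on the log2 scale with their standard errors from edgeR's quasi-likelihood fit of all 48 libraries, and a gene was called when its p-value, adjusted by Benjamini-Hochberg over the 15126 genes, was under 0.05. Between ileum and duodenum 4 of the 10 genes were called (3 higher in ileum, 1 lower), where 33.8% of all genes tested were (17.2% higher, 16.6% lower). Between colon and duodenum 8 were called (2 higher in colon, 6 lower), against 55.0% of all genes (26.8% higher, 28.3% lower), and between colon and ileum 9 were called (2 higher, 7 lower), against 49.2% (23.8% higher, 25.4% lower). The median log2 difference of the 10 genes was -1.19 for colon minus duodenum and -1.63 for colon minus ileum, where the medians of all genes were -0.01 and -0.01. Libraries of the 2 regions did not overlap for 7 of the 10 genes between colon and duodenum (9.75% of all genes) and for 6 between colon and ileum (7.14%), and for 0 between ileum and duodenum (1.46%).

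**Figure D2:**
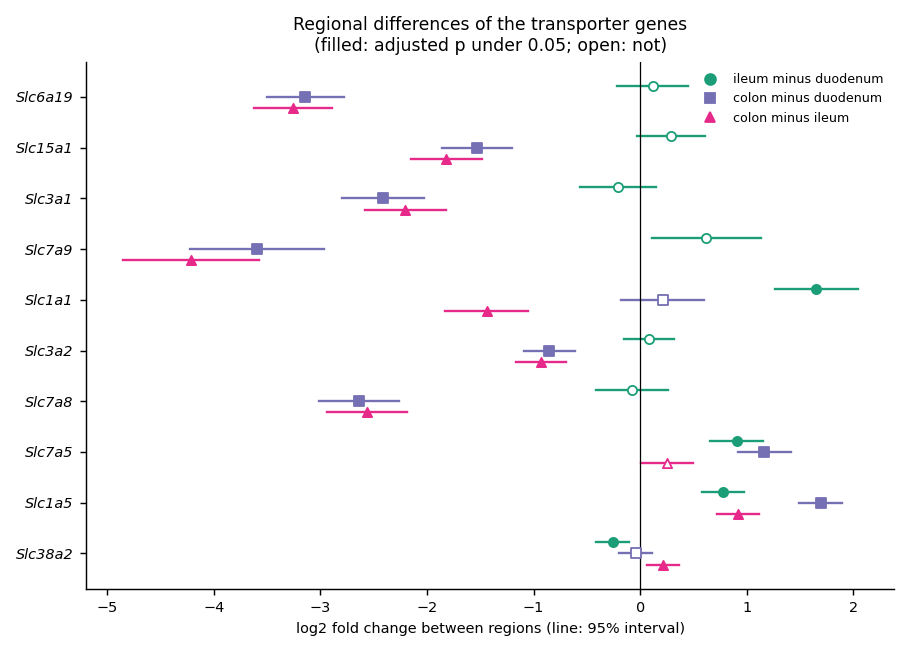
The log2 fold change of each gene is plotted for ileum minus duodenum (green circles), colon minus duodenum (purple squares) and colon minus ileum (pink triangles), with 95% intervals and filled symbols for adjusted p under 0.05. Slc7a8, Slc7a9, Slc3a1, Slc3a2, Slc15a1 and Slc6a19 lie well left of 0 for colon minus duodenum, and Slc1a5 and Slc7a5 lie right of it.

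The apical carriers of neutral amino acids and peptides were low in the libraries of cells sorted from colon. Slc6a19 (GRCm38, chromosome 13, 73679745 to 73704865) ranged from 159 to 824 CPM in duodenum (median 227), from 154 to 475 in ileum (median 286) and from 11.7 to 45.4 in colon (median 30.6). The colonic libraries were all below those of the small intestine, with a log2 difference of -3.14 ± 0.19 (SE) from duodenum (edgeR quasi-likelihood, adjusted p = 5.51e-19) and lower values in each of the 15 mice with both regions. Slc15a1 (chromosome 14, 121459621 to 121505252) ranged from 169 to 870 CPM in duodenum (median 232), from 142 to 541 in ileum (median 310) and from 69.5 to 130 in colon (median 91.6). Its colonic level was again below every library of the small intestine, with a log2 difference of -1.53 ± 0.17 from duodenum (adjusted p = 9.71e-11), and at 19.2 CPM per kb it remained the second most abundant of the 10 in colon. Neither gene was called between ileum and duodenum (log2 difference 0.12 ± 0.17 for Slc6a19 and 0.29 ± 0.16 for Slc15a1). Without the duodenal library of mouse 27, Slc15a1 was called higher in ileum than in duodenum (0.49, adjusted p = 0.00266), and with the library index as a covariate its difference was -0.31 (adjusted p = 0.485) and that of Slc6a19 -0.48 (adjusted p = 0.307).

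Both chains of the cystine and cationic amino acid exchanger fell in the colon, to different extents. Slc7a9 (chromosome 7, 35448796 to 35466036) ranged from 20.7 to 205 CPM in duodenum (median 27.1), from 21.3 to 104 in ileum (median 51.8) and from 0.422 to 8.002 in colon (median 3.11), with no overlap between colon and either other region. The log2 difference of colon from ileum was -4.22 ± 0.33 (adjusted p = 1.51e-14, 16 of 16 mice), the widest regional difference among the 10 genes. Slc3a1 (chromosome 17, 85028376 to 85064236) ranged from 65.3 to 233 CPM in duodenum (median 93.0), from 43.0 to 132 in ileum (median 98.4) and from 6.12 to 49.2 in colon (median 17.1), and was lower in colon than in duodenum (log2 difference -2.41 ± 0.19, adjusted p = 2.02e-14, 15 of 15 mice). The log2 ratio of Slc3a1 to Slc7a9 per kb, chosen after the levels were seen and given without a test, was 1.88 ± 0.455 (SD, n = 16) in duodenum, 0.937 ± 0.356 in ileum and 2.97 ± 0.885 in colon. It was lower in ileum than in duodenum in 14 of 15 mice and higher in colon than in ileum in 15 of 15, counting the 15 mice with all 3 regions. Slc7a9 itself was not called between ileum and duodenum with all libraries (0.62 ± 0.26, adjusted p = 0.0639), but was called higher in ileum without the library of mouse 27 (1.01, adjusted p = 0.000135) and with a mouse block (replicate block) as a fixed term (0.68, adjusted p = 0.0437), and its difference was -0.35 with the library index as a covariate (adjusted p = 0.675). Exons of Slc3a1 overlap those of Prepl on the opposite strand over 601 bases, and the strand setting of the counting is not given in the sources used here, so Slc3a1 counts may hold reads of Prepl.

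Slc1a1, the glutamate and aspartate carrier, had its highest level in ileum. It lies on chromosome 19 (28835049 to 28913960). It ranged from 9.06 to 30.3 CPM in duodenum (median 18.1), from 29.97 to 128 in ileum (median 55.0) and from 7.57 to 37.7 in colon (median 20.7). The ileal libraries lay mostly above those of the other regions and were higher than duodenum in 15 of 15 mice (1.65 ± 0.20, adjusted p = 6.79e-09) and than colon in 16 of 16 mice. The log2 difference of colon from ileum was -1.44 ± 0.20 (adjusted p = 4.95e-08). Colon and duodenum were not told apart, with a difference of 0.21 and a 95% interval of -0.18 to 0.60. Exons of Slc1a1 overlap 4430402I18Rik on the opposite strand over 2631 bases, so its counts share the limit given for Slc3a1. Markers of Paneth cells and of crypt and cycling cells were also highest in ileum. The sum of 6 Paneth markers was 127 to 4017 CPM in duodenum, 1150 to 11960 in ileum and 4.50 to 142 in colon, and that of 6 crypt and cycling markers was 478 to 2035, 996 to 3924 and 72.0 to 266 CPM. Their part in the level of Slc1a1 was not tested.

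Of the light chains that pair with Slc3a2, Slc7a8 was low and Slc7a5 high in the colon. Slc7a8 (chromosome 14, 54722209 to 54781946) ranged from 60.9 to 358 CPM in duodenum (median 78.4), from 54.6 to 122 in ileum (median 90.7) and from 6.41 to 25.2 in colon (median 14.8), and the colon did not overlap the small intestine. The log2 difference of colon from duodenum was -2.64 ± 0.19 (adjusted p = 4.69e-16). Slc7a5 (chromosome 8, 121881150 to 121907694) went the other way, from 12.2 to 37.2 CPM in duodenum (median 20.2), from 18.7 to 70.8 in ileum (median 34.9) and from 27.2 to 62.9 in colon (median 42.5). Its libraries overlapped between regions, but within a mouse it was higher in ileum than in duodenum in 15 of 15 (0.91 ± 0.13, adjusted p = 1.10e-07) and higher in colon than in duodenum in 15 of 15 (1.16 ± 0.13, adjusted p = 4.37e-11). Colon and ileum were not told apart for Slc7a5 with all libraries (0.25 ± 0.12, adjusted p = 0.0862, 11 of 16 mice higher in colon), although the fit with the mouse as a fixed replicate block called it (0.26, adjusted p = 0.0303).

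The heavy chain gene Slc3a2 (chromosome 19, 8706882 to 8723369) was also lower in colon. It ranged from 71.9 to 279 CPM in duodenum (median 83.9), from 76.7 to 131 in ileum (median 98.3) and from 42.6 to 64.7 in colon (median 53.1), and the log2 difference of colon from duodenum was -0.85 ± 0.12 (adjusted p = 3.84e-08). Between ileum and duodenum it was not called with all libraries (0.08), was called higher in ileum without the library of mouse 27 (0.27, adjusted p = 0.00298) and differed by -0.43 with the library index as a covariate (adjusted p = 0.110). The ratios of the partners were computed per kb within each library after the levels were seen, and are given without a test. The log2 ratio of Slc7a5 to Slc7a8 was -1.72 ± 0.764 (SD, n = 16) in duodenum, -0.86 ± 0.763 in ileum and 2.00 ± 0.627 in colon, so that Slc7a8 was the more abundant of the pair in all 16 duodenal libraries and Slc7a5 in all 16 colonic ones. Within a mouse the ratio was higher in colon than in duodenum by 3.68 ± 0.755 (SD, 15 of 15 mice). The log2 ratio of Slc3a2 to the sum of Slc7a5 and Slc7a8 stayed near 0, at 0.14 ± 0.231 in duodenum, 0.01 ± 0.29 in ileum and 0.05 ± 0.351 in colon. Other light chains are not part of this ratio, so it does not compare Slc3a2 with all of its partners. Within a mouse this ratio differed between colon and duodenum by -0.12 ± 0.401, ranging from -0.85 to 0.54, with 5 mice higher and 10 lower.

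**Figure D3:**
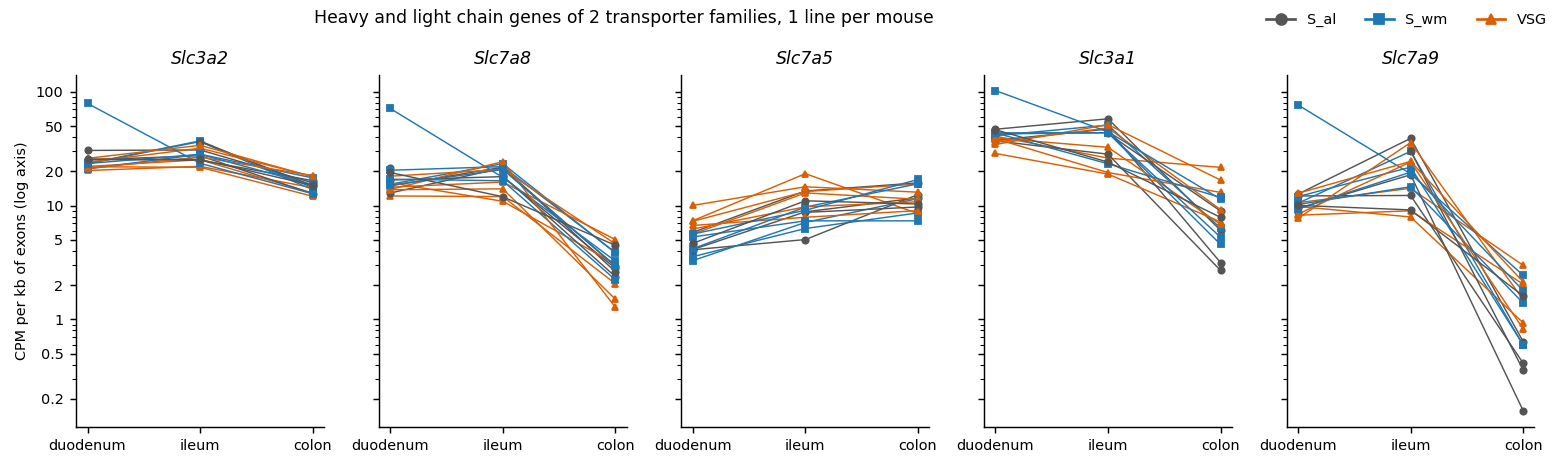
Levels of Slc3a2, Slc7a8, Slc7a5, Slc3a1 and Slc7a9 are plotted in CPM per kb of exons on a shared log axis, by region, with 1 line per mouse coloured by condition. Slc7a8 drops from ileum to colon in every mouse with both regions, Slc7a5 rises from duodenum, and Slc3a2 falls by less than Slc7a8.

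Slc1a5, the glutamine exchanger (chromosome 7, 16781340 to 16798274), was higher in each region than in the one before it. It ranged from 17.5 to 36.2 CPM in duodenum (median 27.1), from 30.1 to 60.1 in ileum (median 41.2) and from 63.3 to 106 in colon (median 78.9), and no colonic library overlapped the small intestine. Colon was higher than duodenum by 1.69 ± 0.10 (adjusted p = 8.38e-20) and than ileum by 0.92 ± 0.10 (adjusted p = 4.96e-11), in every mouse with both regions. Markers of colonocytes and goblet cells were also highest in colon. The sum of 7 colonocyte markers was 95.2 to 525 CPM in duodenum, 124 to 373 in ileum and 542 to 1837 in colon. Of the 7, 5 were called higher and 1 lower in colon than in duodenum, where 26.8% and 28.3% of all genes were. Car1 and Aqp8 were at 0 in at least 1 library of duodenum and of ileum and Slc37a2 in at least 1 of ileum. The sum of 6 goblet markers was 2557 to 5948 CPM in duodenum, 1486 to 9341 in ileum and 2948 to 13810 in colon. Their part in the levels of Slc1a5 and Slc7a5 was not tested. Slc38a2 (chromosome 15, 96687392 to 96699730) had log2 differences of -0.26 to 0.21 between regions. It ranged from 59.7 to 126 CPM in duodenum (median 84.8), from 59.1 to 96.5 in ileum (median 72.1) and from 65.7 to 104 in colon (median 84.9). It was lower in ileum than in duodenum (log2 difference -0.26 ± 0.08, adjusted p = 0.00856, 14 of 15 mice) and higher in colon than in ileum (0.21 ± 0.08, adjusted p = 0.0203, 14 of 16 mice). The latter call was lost without a filter on low counts (0.21, adjusted p = 0.0866) and with the library index as a covariate (0.21, adjusted p = 0.128).

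Regions were almost separated by the second library index, which the labels give without saying what it marks. Index D502 was on 12 libraries, all duodenal. The index was uneven between conditions too, since every duodenal VSG library had D502. The duodenal libraries with D501 were those of S_al mice 12, 13 and 32 and S_wm mouse 27. Within D501 (7 ileal and 4 duodenal libraries) the mean log2 difference of ileum minus duodenum was 0.90 for Slc7a5, 1.19 for Slc1a1, 0.52 for Slc1a5 and -0.07 for Slc38a2. Within D503 (4 colonic and 8 ileal libraries) colon minus ileum was -3.53 for Slc6a19, -1.70 for Slc15a1, -3.37 for Slc7a9, -2.90 for Slc7a8 and 0.75 for Slc1a5. With the index as a covariate, 1713 of the 15126 genes were called between ileum and duodenum, against 5110 without it. Of the 10 members 2 were called, Slc1a1 and Slc7a8, the latter as a gained call (-0.82, edgeR, adjusted p = 0.0478). Those of Slc7a5, Slc1a5 and Slc38a2 were lost (0.62, 0.38 and -0.11, with adjusted p = 0.101, 0.205 and 0.729). The 4 duodenal libraries of D501 included that of mouse 27, without which the differences within D501 were 0.93, 1.23, 0.45 and -0.20. For Slc7a8 the difference within D501 was -0.60 with that library and -0.08 without it. Calls between colon and duodenum stayed at 8 of 10 with the index as a covariate, while those over all genes went from 8322 to 4236.

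Enterocyte markers were low in colon, as were Slc6a19, Slc7a8, Slc15a1, Slc7a9, Slc3a1 and Slc3a2, while the apical carrier Slc1a1 was not told apart between colon and duodenum. All 15 enterocyte markers were called lower in colon than in duodenum (28.3% of all genes), with a median log2 difference of -5.52. Across the 48 libraries, which share region and mouse, log2 CPM correlated with the log2 summed enterocyte markers at Pearson's r = 0.976 for Slc6a19, 0.961 for Slc7a8, 0.936 for Slc15a1, 0.934 for Slc7a9, 0.91 for Slc3a1 and 0.892 for Slc3a2, and at -0.506 for Slc7a5, -0.791 for Slc1a5, 0.389 for Slc1a1 and -0.218 for Slc38a2. After the 9 group means were removed and the duodenal library of mouse 27 was left out (47 libraries), r was 0.697 for Slc15a1, 0.6 for Slc6a19, 0.582 for Slc3a1, 0.508 for Slc7a9, 0.479 for Slc3a2 and 0.441 for Slc7a8, and -0.349 for Slc7a5. In bulk libraries of sorted cells, fewer cells of a type and less RNA per cell cannot be told apart, and the part of enterocyte RNA in the regional differences was not tested.

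**Figure D4:**
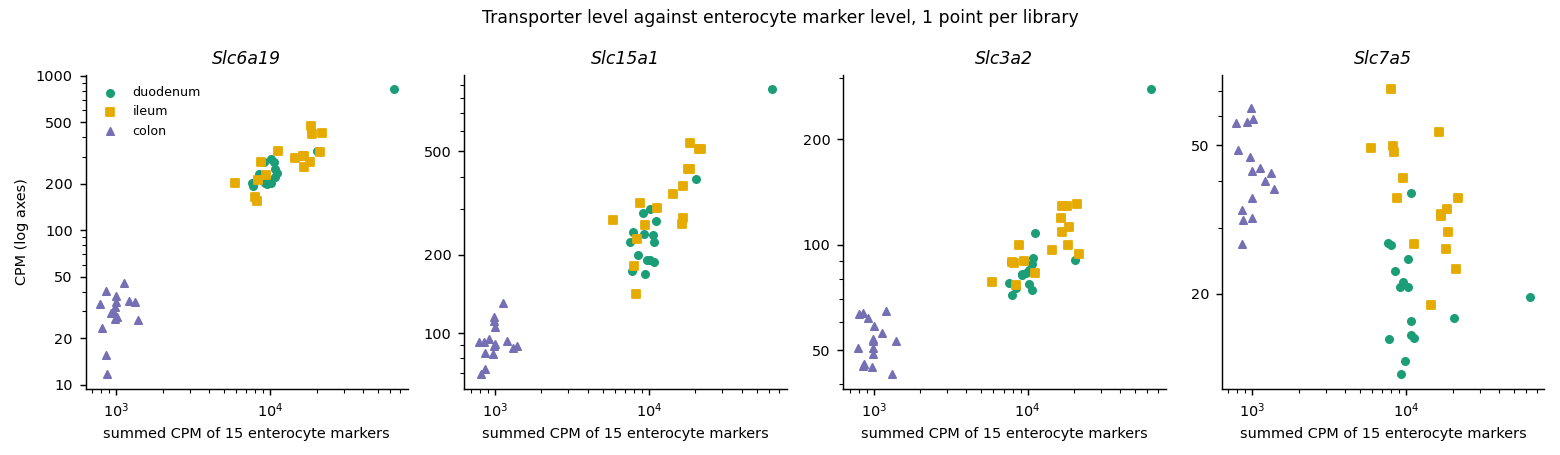
The level of Slc6a19, Slc15a1, Slc3a2 and Slc7a5 (CPM) is plotted against the summed CPM of 15 enterocyte markers, both on log axes, with 1 point per library (green circles duodenum, yellow squares ileum, purple triangles colon). Slc6a19, Slc15a1 and Slc3a2 rise with the markers up to the duodenal library of mouse 27 at 63260 CPM, and Slc7a5 does not.

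For each transporter, the genes with the most similar log2 CPM over the 48 libraries were listed as a description. Those most like Slc6a19 were Slc16a10 (Pearson's r = 0.975), an aromatic amino acid carrier, and the lipoprotein genes Apoa1 (0.973) and Mttp (0.966). The most like Slc7a8 was Pdzk1 (0.963), a scaffold of apical transporters, the most like Slc7a9 was Ggt1 (0.955), and the most like Slc3a1 was Cdh17 (0.955), an intestinal cadherin. For Slc15a1 they were the leucine aminopeptidase gene Lap3 (0.943) and the amino acid carriers Slc43a2 (0.939) and Slc6a19 (0.937), and after the group means were removed Lap3 (0.821) and Slc6a19 (0.809) were still the nearest. Slc3a2 was most like Acsl5 (0.941), and within groups like P4hb (0.878). The nearest to Slc1a5 was Gas6 (0.935) and to Slc1a1 Aldh1b1 (0.857). Slc7a5 had no neighbour above Vav1 (0.795), and within groups its nearest was Rtn4rl1 (0.638). Slc38a2 was least like any gene, with Ly6a first (0.607).

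The comparison of conditions asks whether gastrectomy altered these transporters in EECs. No member was called for VSG against S_al, VSG against S_wm or S_wm against S_al, in any region or averaged over regions, or for the interaction of condition and region, so 0 of 10 in each. Among all genes, edgeR called 0.0% for VSG minus S_al averaged over regions and in every region, 0.245% for VSG minus S_wm averaged over regions, 0.225% in duodenum, 0.0463% in ileum and 0.0595% in colon, 0.0529% for S_wm minus S_al averaged over regions, 0.0% in duodenum and ileum and 0.0132% in colon, and 0.0% for the interaction. DESeq2 also called 0 of the 10 in each of these comparisons. At an unadjusted p under 0.05 there were 5 of the 10 for VSG minus S_wm averaged over regions (9.92% of all genes), 8 in duodenum (8.71%), 1 in ileum (6.38%) and 1 in colon (3.65%), and for VSG minus S_al 1 averaged over regions (5.53%), 1 in duodenum (2.45%), 1 in ileum (6.16%) and 2 in colon (6.28%). For S_wm minus S_al there were 2 averaged over regions (6.39%), 3 in duodenum (6.55%), 1 in ileum (7.85%) and 0 in colon (3.66%), and for the interaction 3 (4.9%), Slc3a1, Slc7a9 and Slc7a5. Without the duodenal library of mouse 27, the counts for VSG minus S_wm were 3 in duodenum (3.29% of all genes) and 3 averaged over regions (9.96%), in both cases Slc7a5, Slc1a5 and Slc38a2, and those for S_wm minus S_al were 0 in duodenum (2.7%) and 0 averaged over regions (6.06%). VSG was compared with both sham groups, so the comparisons share libraries.

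Slc7a5 had the lowest p of the 10 against S_wm averaged over regions and had higher values after VSG in both parts of the small intestine, without passing the adjusted threshold. In duodenum it measured 15.2, 15.2, 16.9, 17.3 and 21.6 CPM in S_al, 12.2, 13.2, 15.5, 19.7 and 20.9 CPM in S_wm, and 20.8 to 37.2 CPM in VSG (median 25.9). The lowest VSG library lay just under the highest of each sham group and the other 5 lay above all sham libraries. The log2 difference was 0.72 ± 0.22 against S_wm (edgeR, unadjusted p = 0.00195, adjusted p = 0.131) and 0.63 ± 0.22 against S_al (adjusted p = 1.0). In ileum it measured 18.7, 32.3, 32.7, 40.9 and 49.9 CPM in S_al, 23.3, 26.4, 27.3, 33.8 and 36.0 CPM in S_wm, and 29.3 to 70.8 CPM in VSG (median 48.6), with 0.71 ± 0.21 against S_wm (adjusted p = 0.37) and 0.46 ± 0.21 against S_al (adjusted p = 0.788). The groups overlapped there. In colon VSG ranged from 31.5 to 57.4 CPM, inside the S_wm range of 27.2 to 62.9 CPM, and the difference was -0.07 with a 95% interval of -0.49 to 0.34. The interaction of condition and region was not called for Slc7a5 (edgeR, unadjusted p = 0.0419, adjusted p = 1.0). Averaged over regions VSG exceeded S_wm by 0.45 ± 0.12 (adjusted p = 0.112), and among the 28 alternatives a call was made when S_wm mouse 31 was left out (0.56, adjusted p = 0.0432). Without the duodenal library of mouse 27 the difference was 0.47 (adjusted p = 0.103).

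Slc38a2 and Slc1a5 also had higher values in VSG than in S_wm without passing the adjusted threshold. In duodenum Slc38a2 measured 59.7, 76.8, 77.8, 80.5 and 83.5 CPM in S_wm and 71.8 to 126 CPM in VSG (median 102), a log2 difference of 0.39 ± 0.13 (adjusted p = 0.222). All but 1 of the 6 VSG libraries were above all 5 of S_wm. Slc1a5 measured 17.5, 19.2, 20.8, 23.4 and 28.2 CPM in S_wm and 22.3 to 36.2 CPM in VSG (median 28.7), a difference of 0.44 ± 0.17 (adjusted p = 0.338), with overlapping groups. Without the library of mouse 27 these differences were 0.31 and 0.46.

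Slc6a19, Slc15a1, Slc7a9, Slc3a1, Slc7a8 and Slc3a2 had lower values in VSG than in S_wm in duodenum, none of them called, and most of the difference went with the library of mouse 27. That library held 824 CPM of Slc6a19, 870 CPM of Slc15a1, 205 CPM of Slc7a9, 233 CPM of Slc3a1, 358 CPM of Slc7a8 and 279 CPM of Slc3a2. These were 2.52 to 7.63 times the median of the other duodenal libraries, while its Slc7a5 (0.944 times), Slc1a5 (0.863 times) and Slc38a2 (0.7 times) were not raised. With all libraries the log2 differences of VSG minus S_wm were -1.30 for Slc7a9, -0.92 for Slc7a8, -0.70 for Slc15a1, -0.68 for Slc6a19, -0.59 for Slc3a2 and -0.59 for Slc3a1. Without it they were -0.14, -0.21, -0.10, -0.12, -0.02 and -0.24. Slc3a1 was the only member whose groups did not overlap between VSG and S_wm in duodenum (0.529% of all genes), at 65.3 to 92.6 CPM in VSG (median 85.0) and 93.5, 97.0, 98.9, 99.0 and 233 CPM in S_wm.

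**Figure D5:**
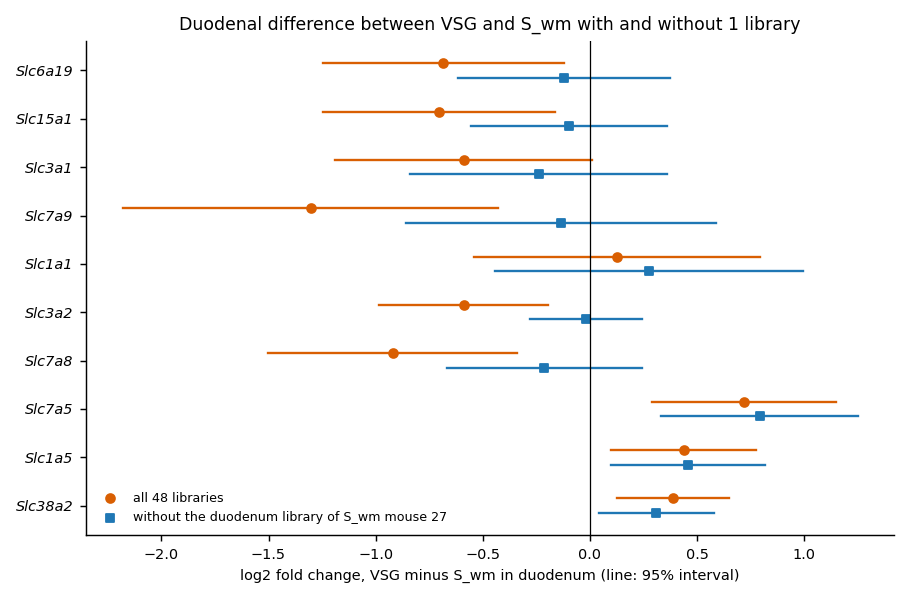
The log2 fold change of VSG minus S_wm in duodenum is plotted for the 10 genes with 95% intervals, from all 48 libraries (orange circles) and without the duodenal library of S_wm mouse 27 (blue squares). Slc7a9, Slc7a8, Slc15a1, Slc6a19, Slc3a2 and Slc3a1 move towards 0 without that library, and Slc7a5 moves from 0.72 to 0.79.

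In the colon the exchanger genes had higher values in VSG than in S_al, and neither was called. Slc7a9 rested there on few reads, with 3 to 19 per library in S_al, 11 to 38 in S_wm and 11 to 52 in VSG. Slc3a1 measured 6.12, 7.17, 13.8, 17.9 and 20.4 CPM in S_al, 10.4, 12.0, 14.4, 25.9 and 26.8 CPM in S_wm and 15.5 to 49.2 CPM in VSG (median 25.3). VSG exceeded S_al by 1.14 ± 0.34 (unadjusted p = 0.00156, adjusted p = 0.696) and S_wm by 0.68 ± 0.33 (adjusted p = 1.0), and all groups overlapped. Slc7a9 measured 0.422, 0.96, 1.10, 1.71 and 4.31 CPM in S_al, 1.58, 1.60, 3.72, 4.79 and 6.53 CPM in S_wm and 2.20 to 8.002 CPM in VSG (median 4.72), a difference of 1.56 ± 0.65 from S_al (adjusted p = 0.777) and of 0.38 ± 0.57 from S_wm (adjusted p = 1.0). Without the ileal and colonic libraries of S_al mouse 12, whose labels were crossed, these differences from S_al were 1.17 and 1.60, and with the 2 libraries exchanged they were -0.38 and -2.27. The summed enterocyte markers were 969 to 1392 CPM in colonic S_al libraries and 788 to 1321 CPM in those of VSG.

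Between the sham groups, Slc15a1 had higher values in S_wm than in S_al in the ileum, without being called. In ileum it measured 142, 261, 278, 344 and 369 CPM in S_al and 303, 317, 426, 512 and 541 CPM in S_wm, a log2 difference of 0.59 ± 0.29 (adjusted p = 0.632) with overlapping groups. In duodenum the difference was 0.57 ± 0.29 with all libraries and -0.03 without that of mouse 27, and in colon it was -0.01 ± 0.29. Averaged over regions the difference was 0.38 ± 0.17 with all libraries (adjusted p = 0.757) and 0.18 without the duodenal library of mouse 27. Slc7a8 and Slc7a9 differed by 0.70 and 1.16 in duodenum with that library and by -0.01 and -0.01 without it. Slc1a1 had no unadjusted p under 0.05 in any comparison of conditions.

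Of 45 other amino acid transporter genes and their partners, 32 passed the filter. Between colon and duodenum 23 were called (9 higher in colon, 14 lower), against 55.0% of all genes, with a median log2 difference of -0.09, and between colon and ileum 25 were called (12 higher, 13 lower), against 49.2%. The largest difference was that of Slc6a14 (ATB0,+), a carrier of neutral and cationic amino acids, from a mean of 0.339 ± 0.61 CPM in duodenum (SD, n = 16) and 2.03 ± 1.63 in ileum to 242 ± 115 in colon. Its log2 difference between colon and ileum was 6.88 ± 0.33 (adjusted p = 6.81e-21). Cltrn (collectrin), a partner that brings neutral amino acid transporters to the membrane, fell from 22.7 ± 6.89 CPM in duodenum to 0.149 ± 0.23 in colon, and Slc6a20a, a proline carrier, fell from 32.3 ± 38.1 to 2.73 ± 1.56 CPM. Slc7a14 was lower in ileum than in duodenum (log2 difference -2.36 ± 0.38, adjusted p = 2.77e-06) and higher in colon than in ileum (2.99 ± 0.39, adjusted p = 5.55e-09), at means of 0.694 to 5.10 CPM. Slc36a4, a proline and tryptophan carrier, rose from 2.65 ± 1.27 CPM in duodenum to 11.3 ± 3.36 in ileum and 20.1 ± 4.68 in colon. Between ileum and duodenum 16 of the 32 were called (7 higher, 9 lower), against 33.8% of all genes, including Slc38a3, a glutamine carrier, whose log2 difference was -2.26 ± 0.40 (adjusted p = 1.25e-05). With the library index as a covariate the calls between ileum and duodenum were lost for Slc38a3 (-1.65, adjusted p = 0.210) and Slc7a14 (-1.47, adjusted p = 0.234).

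For the conditions, 1 of these 32 genes was called, Slc6a20a for VSG minus S_wm in duodenum, where 0.225% of all genes were. Its log2 difference was -2.08 ± 0.47 (edgeR, adjusted p = 0.0462). Without the library of mouse 27 the difference was -1.08 (adjusted p = 1.0), and over all 27 alternatives its adjusted p was 0.0068 to 1.0 and the call was lost in 17. In the same comparison the log2 difference of Slc43a2 was -1.11 ± 0.28 (adjusted p = 0.0578). Its level was 265 ± 208 CPM (SD) over the duodenal libraries. Its difference without the library of mouse 27 is not given here, and edgeR called no gene in that comparison once the library was left out. Slc7a1, a cationic amino acid carrier, had the lowest p for VSG minus S_wm averaged over regions (0.22 ± 0.06, adjusted p = 0.159).

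Genes of the amino acid response, through which cells answer amino acid shortage by way of the transcription factor Atf4, were also counted, since Slc7a5, Slc3a2 and Slc38a2 are known targets of it. All 30 listed genes passed the filter, and between colon and duodenum 19 were called (4 higher in colon, 15 lower), against 55.0% of all genes, with a median log2 difference of -0.25. The members that rose were led by Nupr1, a stress-induced chromatin protein, from 4.88 ± 2.12 CPM in duodenum to 184 ± 34.5 in colon (SD, n = 16), by Stc2, from 0.619 ± 0.479 to 11.5 ± 4.58 CPM, and by the alanine aminotransferase gene Gpt2, from 5.09 ± 1.39 to 22.3 ± 6.81 CPM. For VSG minus S_wm averaged over regions 1 of 30 was called (0.245% of all genes), the asparagine synthetase gene Asns, which was higher by 0.42 ± 0.10 (edgeR, adjusted p = 0.0437). Of the 30, 26 had a positive value, with a median of 0.18 where that of all genes was 0.00. No test of the 30 as a set was run, and this count without the library of mouse 27 is not given here. Over the 28 alternatives for Asns the adjusted p was 0.0099 to 0.477, the call was lost in 20, and without the library of mouse 27 the difference was 0.38 (adjusted p = 0.0781). The call was also lost in the fits that treat the mouse as the unit. The difference was 0.51 with edgeR on counts summed per mouse (adjusted p = 0.477) and 0.41 with limma voom and a random mouse block (adjusted p = 0.37). Atf4 itself differed by 0.36 ± 0.09 (adjusted p = 0.0821) and Eif4ebp1, an inhibitor of translation, by 0.52 ± 0.15 (adjusted p = 0.159). For VSG minus S_al averaged over regions 0 of the 30 were called by edgeR and 5 had an unadjusted p under 0.05 (5.53% of all genes). There, 22 of the 30 had a positive value, where 7921 of all 15126 genes did, with a median of 0.04. Between the sham groups, Asns had the lowest p of the 30 averaged over regions, with lower values in S_wm. There, S_wm minus S_al by edgeR was -0.38 ± 0.10 for Asns (adjusted p = 0.474) and -0.28 ± 0.10 for Atf4 (adjusted p = 0.627), neither of them called.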

How the data were processed

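RNA of sorted EECs was sequenced as 50-base single-end reads from a stranded total RNA kit in 48 libraries of 17 mice. The authors aligned reads to GRCm38 with STAR 2.5.1 and deposited raw read counts per gene, after demultiplexing with CASAVA. All columns of the table matched a sample. Symbols and exon lengths came from GENCODE M21 (53360 of 53465 genes matched). Here, genes were filtered by filterByExpr (edgeR 4.0.16 in R 4.3.3), scaled by TMM and fitted with 1 mean for each of 9 groups by robust quasi-likelihood, with Benjamini-Hochberg adjustment over 15126 genes at 0.05. Standard errors came from the log2 fold change and its F statistic, and 95% intervals are 1.96 SE on either side. The CPM shown are TMM-scaled, and log2 CPM used a prior count of 2. A mouse gave 1 library per region, so that mouse numbers pair regions (15 mice had all 3) but not conditions. Same-mouse libraries deviated from their group means with a median correlation of 0.0983 (46 pairs), against -0.00253 for other pairs (722). Separate mice are the replicates. The main fit held no mouse term, so comparisons averaged over regions count up to 3 libraries of a mouse as independent. Alternatives were DESeq2 (1.42.0) or its size factors, other count filters, limma voom (3.58.1) with a random mouse block, a fixed mouse block, sums per mouse, only the libraries compared, omission or exchange of mouse 12 libraries, omission of the duodenal library of mouse 27, the library index as covariate, and omission of each mouse. The scripts were tested on simulated counts. The 10 genes, the gene lists and the marker lists were chosen with earlier results of these data known. Besides the 10 members, the text names, from the 2 other gene lists, up to 4 genes per comparison with the largest change past the threshold and, for conditions, up to 3 with the lowest p, and by likeness the 3 genes with the highest Pearson's r. Ratios of partner genes were added after the levels were seen. A gene that this rule names is not reported here.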

Additional observations from a re-analysis of the deposited data

Results flagged for a closer look

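In 11 of 90 groups (1 gene in 1 condition and region), the highest or lowest library lay farther from the others than Dixon's 95% critical value allows, which chance does in about 1 in 20 groups. The duodenal library of S_wm mouse 27 gave 7 of these. It was high for Slc7a8 (358.0 CPM, others 75.5 to 102), Slc7a9 (205.4 CPM, others 24.98 to 32.1), Slc3a1 (233.1 CPM, others 93.5 to 99.0), Slc3a2 (279.1 CPM, others 74.1 to 82.8), Slc15a1 (870.2 CPM, others 191 to 289) and Slc6a19 (824.1 CPM, others 204 to 276), and low for Slc38a2 (59.69 CPM, others 76.8 to 83.5). Its summed enterocyte markers were 63260 CPM, against 9147 to 10660 CPM in the other 4 S_wm duodenal libraries, and their part in these levels was not tested.

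The other 4 libraries were single values. Slc7a8 was 22.44 CPM in the colon of S_al mouse 32 (others 11.9 to 14.6), Slc3a1 was 53.0 CPM in the ileum of S_wm mouse 29 (others 99.1 to 116), Slc3a2 was 107.8 CPM in the duodenum of S_al mouse 12 (others 88.3 to 90.6) and Slc6a19 was 474.7 CPM in the ileum of S_wm mouse 31 (others 275 to 325).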

How the results depend on the processing

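Across 28 alternatives, 811 of 840 refits of the 30 regional differences of the 10 genes kept direction and call, 5 lost the call, 14 gained it and 10 reversed. Of the 120 differences between conditions, the 26 with an unadjusted p under 0.05 were refitted. In 710 refits, 1 gained a call, 7 reversed and the others kept direction and stayed uncalled, though some became small: without the library of mouse 27, VSG minus S_wm in duodenum went from -0.59 to -0.02 for Slc3a2 and from -1.30 to -0.14 for Slc7a9. The count of members called between ileum and duodenum was 4 with all libraries, 7 without the duodenal library of S_wm mouse 27 and 2 with the library index as a covariate, and 4 to 7 when 1 mouse was left out. For VSG minus S_wm averaged over regions it was 0 to 1 when 1 mouse was left out. The pairing of regions by mouse (replicate block) gave 5 members called between ileum and duodenum with either a random or a fixed block, 8 between colon and duodenum, and 9 or 10 between colon and ileum. For Slc7a8, ileum minus duodenum reversed with the random block (0.001126), the fixed block (0.04678) and without the library of mouse 27 (0.1596), and ranged from -0.1491 to 0.1739 when 1 mouse was left out. With the index this difference of Slc7a8 was -0.8211 and was called (edgeR, adjusted p = 0.0478). Slc7a9 gained its call in the same comparison with both blocks, and Slc7a5 gained one between colon and ileum with the fixed block; the blocks changed no other member's call. With the index, ileum minus duodenum reversed for Slc7a9 (-0.3523), Slc3a2 (-0.4346), Slc15a1 (-0.3129) and Slc6a19 (-0.4813), and colon minus duodenum for Slc1a1 (-0.6481) and Slc38a2 (0.09545); the cause was not tested. With the ileal and colonic libraries of mouse 12 exchanged, VSG minus S_al in colon reversed for Slc7a9 (-2.274) and Slc3a1 (-0.3763), as did S_wm minus S_al averaged over regions for Slc7a9 (-0.3066). Without the library of mouse 27, S_wm minus S_al in duodenum was -0.007821 for Slc7a8 and -0.01249 for Slc7a9, and leaving out 1 mouse gave -0.007728 to 0.8603 and -0.0123 to 1.362. Slc38a2 lost its call between colon and ileum without a filter on low counts (0.2072, adjusted p = 0.0866) and with the index (0.2051, adjusted p = 0.128), against 0.2147 before. Counts over all genes moved more. Across the alternatives, the genes called for VSG minus S_wm were 0 to 226 in duodenum (34 with all libraries), 0 to 21 in ileum (7), 3 to 15 in colon (9) and 5 to 102 averaged over regions (37). For S_wm minus S_al they were 0 to 263, 0 to 6, 0 to 29 and 0 to 13 (0, 0, 2 and 8), for VSG minus S_al 0 to 0, 0 to 44, 0 to 41 and 0 to 26 (0 in each), and for the interaction 0 to 10 (0). With DESeq2 in place of edgeR, VSG minus S_wm gave 216 in duodenum and 102 averaged over regions, and without the library of mouse 27 edgeR gave 0 in duodenum. With the index, 1713 genes were called between ileum and duodenum (5110 without it) and 4236 between colon and duodenum (8322), and calls were lost between ileum and duodenum for Slc6a14 (1.90), Slc7a14 (-1.47), Slc38a3 (-1.65), Psat1 (-0.52) and Eif4ebp1 (0.36), and for Phgdh between colon and duodenum (-1.78, before -1.57) and colon and ileum (-1.19, before -1.80).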
